A study of Mus musculus with 192 samples.

Results

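ISG15 conjugation and its reversal were followed through 5 genes: the modifier Isg15, the activating enzyme Uba7, the conjugating enzyme Ube2l6, the ligase Herc6 and the protease Usp18. The genes were chosen by name, 5 of the 18460 genes that the deposited RefSeq table of start-site windows names. Of the 373 windows named for them, the 100 that lie within 1000 bp of an annotated start were used, and 85 of these had a peak on the gene's strand in at least 1 cell kept. The table holds 553094 windows of 150 bp on build mm9, 136788 of them within this distance of a start. By gene, these windows numbered 10 for Isg15, 17 for Uba7, 18 for Ube2l6, 31 for Herc6 and 24 for Usp18.

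The cells were mouse embryonic fibroblasts, connective-tissue cells grown out of embryos, of strain C57BL/6. Each was profiled alone by a method that reads the 5′ ends of RNA, so that a read (a tag) marks where transcription began. All cells of both groups had interferon-beta at 100 U/ml for 1 h, 96 of them naïve and 96 pretreated. What the pretreatment was is not in the labels, which also name no animal, culture or plate. Each group therefore counted as 1 sample of many cells, no difference between the groups was tested, and every interval here covers counting error only.

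ISG15 is a ubiquitin-like protein that interferon induces and that is attached to other proteins. UBA7 activates it, UBE2L6 (also called UBCH8) carries it, and HERC6 is the main ligase that transfers it to target proteins in mice. USP18 removes ISG15 from proteins, and by binding the receptor subunit IFNAR2 it also dampens the response of a cell to further type I interferon.

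The promoters of 4 of the 5 genes were matched in the RefSeq promoter table for build GRCm38.p6 (Isg15, Uba7, Ube2l6 and Herc6), and no entry was matched for Usp18. They are shown because tags were counted around these starts, and because they differ in the letters of the interferon response element. Each runs from 250 bases before the annotated start to 30 bases after it, 5′ to 3′ on the gene's strand. Isg15 lies at chr4:156200789-156201068 on the minus strand. Uba7 is at chr9:107975317-107975596, Ube2l6 at chr2:84798578-84798857 and Herc6 at chr6:57580742-57581021, all on the plus strand. Capitals mark matches, on either strand, to GAAANNGAAA, the repeat of the interferon response element, or to AANNGAAA, which the longer pattern contains.
Isg15: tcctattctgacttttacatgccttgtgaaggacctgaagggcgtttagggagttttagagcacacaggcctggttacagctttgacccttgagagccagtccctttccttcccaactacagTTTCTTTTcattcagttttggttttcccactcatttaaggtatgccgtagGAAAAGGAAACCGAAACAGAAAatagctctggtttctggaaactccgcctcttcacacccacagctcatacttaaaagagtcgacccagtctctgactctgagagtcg
Uba7: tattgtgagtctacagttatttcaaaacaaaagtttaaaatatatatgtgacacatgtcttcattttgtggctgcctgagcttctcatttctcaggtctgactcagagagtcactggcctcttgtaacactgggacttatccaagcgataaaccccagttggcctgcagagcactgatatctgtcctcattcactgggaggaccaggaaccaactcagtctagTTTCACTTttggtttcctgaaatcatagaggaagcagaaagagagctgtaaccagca
Ube2l6: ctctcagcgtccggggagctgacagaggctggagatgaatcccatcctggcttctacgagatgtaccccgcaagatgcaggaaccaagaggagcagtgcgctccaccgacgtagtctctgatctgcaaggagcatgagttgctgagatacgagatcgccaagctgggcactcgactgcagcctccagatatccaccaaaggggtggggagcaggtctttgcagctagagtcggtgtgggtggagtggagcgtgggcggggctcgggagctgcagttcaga
Herc6: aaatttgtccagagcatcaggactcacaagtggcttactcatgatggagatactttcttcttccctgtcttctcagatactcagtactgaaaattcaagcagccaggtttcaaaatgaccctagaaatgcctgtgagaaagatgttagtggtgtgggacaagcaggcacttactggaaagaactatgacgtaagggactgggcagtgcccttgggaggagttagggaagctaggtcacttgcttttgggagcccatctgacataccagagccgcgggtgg

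The full table entries of 300 bases were searched. Isg15 had 3 overlapping matches to GAAANNGAAA, together spanning bases -78 to -57 from its start, and a further match to AANNGAAA on the other strand at -128 to -121. Uba7 had 1 match, to AANNGAAA on the other strand at -27 to -20. Neither pattern was found in these windows of Ube2l6 and Herc6. Of the 32851 promoters of this length in the table, 3.44% held GAAANNGAAA and 23.9% held AANNGAAA. The promoter of Ube2l6 had the highest G+C content of the 4, 59.7% with 15 CpG, against a median of 52.7% and 7 CpG over the table. Uba7 had 44.7% and 2 CpG, Isg15 46.3% and 6, and Herc6 49% and 4. The signal below is placed on mm9, and whether the starts of both builds correspond was not checked.

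Cells with at least 10% of the median total were kept, 92 naïve and 85 pretreated. Their totals ran from 305066 to 3857034 tags in naïve cells, with a median of 2305627.5. In pretreated cells they ran from 502374 to 13174313, with a median of 2650490. The listed peaks held 90.1% of naïve and 84.6% of pretreated tags. Mitochondrial peaks held 0.759% of the naïve tags in peaks and none of the pretreated ones, so the files of the groups also differ in which sequences they list; the part of this in the results was not tested. A cell is called listed for a gene when its file holds a promoter peak of that gene, which had to reach 200 tags per 10000000 tags of the cell. Of 14 fibroblast markers, 13 were listed in at least 1 naïve cell and 12 in at least 1 pretreated cell. The 9 that passed the filter below all lay within 2-fold (8 of 9 after median-of-ratios scaling, without Fn1). Sparc led them with 2958 and 3817 CPM (tags per 1000000 total tags of the group). The markers that did not pass were listed in few cells and did not all hold their level. Col5a1 was higher in pretreated cells (log2 ratio 2.03), and Pdgfra and Dcn were lower (-1.95 and -2.61). Thy1 was listed in 1 naïve cell alone, and Lum has no window named for it. The leukocyte list summed to 15.5 and 29.1 CPM, with 5 and 3 of 8 markers listed. Cd14, which alone of them passed the filter, had 7.18 and 19.8 CPM, in 15 naïve and 33 pretreated cells. Cd68 had 7.74 and 1.68 CPM, and Fcer1g 0.034 and 7.66 CPM. Ptprc, Adgre1 and Tyrobp have no window named for them, so they could not be listed. Endothelial markers summed to 0 and 2.76 CPM, and the epithelial and muscle lists stood at 0 in both groups.

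The transfer enzymes and the protease had a higher promoter CPM in the pretreated group. For the modifier, listed in few cells, the log2 ratio was -0.28, and 0.35 without naïve cell 78, so no direction is given. Of the 5 genes, 4 (Uba7, Ube2l6, Herc6 and Usp18) were at least 2-fold higher in pretreated cells, where 29.7% of the 4421 genes tested were. None was at least 2-fold lower, where 9.18% of the genes tested were. By the share of cells listed, 3 (Uba7, Ube2l6 and Herc6) were listed in at least 20 percentage points more of the pretreated cells, where 42.5% of the genes tested were. None was listed in at least 20 points fewer, where 2.69% were. To be tested, a gene needed 10 CPM or more in one group or the other, and a listed peak in 20% or more of a group's cells. Uba7 passed this filter through the pretreated group alone and so had to differ, and Isg15, which did not pass, has values but no call. The median log2 ratio of pretreated over naïve CPM was 0.47 over all genes tested. Median-of-ratios scaling takes this shift of 0.47 off every ratio. It left the same 4 of the 5 genes at least 2-fold higher, with 17.3% of all tested genes higher and 15.6% lower. In bulk sums such as these CPM values, fewer cells with a given RNA and less RNA per cell cannot be told apart, so the cell values are given with each sum. The cell values do not fully separate them either, because a cell with signal below the minimum counts as unlisted.

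**Figure D1:**
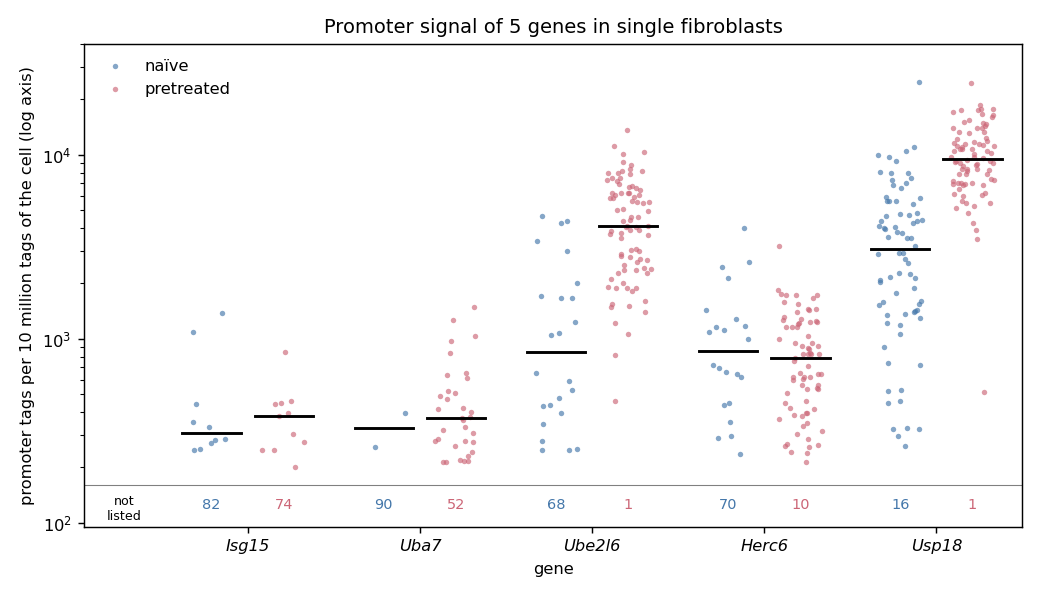
Promoter signal of each gene in each kept cell, in tags per 10000000 tags of the cell on a log axis; points are cells with a listed peak, black lines their medians, and the numbers at the foot count the kept cells with none. Ube2l6 and Usp18 were listed in 84 of the 85 pretreated cells, while Isg15 was listed in few cells of either group.

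Isg15 (chromosome 4, minus strand, NM_015783), the modifier itself, was listed in few cells of either group. In the 10 naïve cells listed, the lowest, median and highest signal were 247, 308 and 1374 scaled tags, that is, tags per 10000000 tags of the cell. In the 11 pretreated cells listed they were 201, 379.5 and 844. The ranges overlapped, with the 2 highest naïve cells, at 1374 and 1091, above every pretreated cell. Of naïve cells 10.9% were listed (95% exact binomial interval 5.34 to 19.1) and of pretreated cells 12.9% (6.64 to 21.98). These intervals overlap, and the difference in the share of cells was not tested. Summed over the cells, the naïve group had 1080 Isg15 tags (5.31 CPM) and the pretreated group 1253 tags (4.37 CPM), a log2 ratio of -0.28 with a counting interval of -0.40 to -0.16. The sign rests on 1 cell: without naïve cell 78, which held 36.4% of the naïve tags, the ratio was 0.35. The counting interval does not cover this spread between cells. Of the first 300 bases of its transcripts, 9.96% of the 50-base stretches also occur in a processed pseudogene, so its values are uncertain to that extent.

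The place of the Isg15 tags differed between the groups. In naïve cells 97.6% of the tags lay within 100 bp of the annotated start, from 9 of the 10 cells. The window that starts at 155574830, at distance 23 bp, alone held 90.5% of them in 8 cells. In pretreated cells 6.15% lay within 100 bp, 77 tags from 2 cells. Most pretreated tags, 65.9% or 826 tags from 5 cells, lay in a window of the first intron, at distance 458 bp (start 155574395), where 1 naïve cell also had 26 tags. Windows in the second exon held a further 350 tags from 5 pretreated cells and none from naïve cells. Counted within 100 bp alone, Isg15 thus stood at 5.18 CPM and 9.78% of cells in the naïve group, against 0.268 CPM and 2.35% of cells in the pretreated group. The intervals of these cell shares, 4.57 to 17.8 and 0.286 to 8.24, overlap. They cover counting error only, and the difference in the share of cells listed there was not tested.

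Uba7 (chromosome 9, plus strand, NM_023738), the enzyme that activates ISG15, was nearly unlisted in naïve cells. Only 2 naïve cells listed it, with 257 and 395 scaled tags. In 33 pretreated cells the lowest, median and highest values were 214, 372 and 1494, and 15 of them lay above both naïve cells. The share of cells listed went from 2.17% (0.264 to 7.63) to 38.8% (28.4 to 50.01), a difference of 36.6 percentage points. In sum the naïve group had 140 Uba7 tags (0.689 CPM) and the pretreated group 5060 (17.6 CPM). The fold was 25.6, a log2 ratio of 4.67 with a counting interval of 4.44 to 4.93. Because the naïve level rests on 2 cells, the ratio was 5.92 without naïve cell 5 and 5.43 without naïve cell 81.

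All 140 naïve tags of Uba7 lay in the window at distance -3 bp (start 107877821). In pretreated cells this window held 17.96% in 4 cells, and the window 4 bp further on, at distance 1 bp, led with 49.6% in 14 cells. Without pretreated cell 6 the share of the first window was 6.84%. These are neighbouring letters of the same start region: chained within 50 bp, 1 site held 93.6% of the pretreated tags. Uba7 overlaps another annotated gene, Gm20661, though none of the 50-base stretches of its first 300 bases is shared.

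Ube2l6 (chromosome 2, plus strand, NM_019949), the carrier of activated ISG15, was the gene whose share of cells differed most of the 5. The 24 naïve cells that listed it had a lowest, median and highest signal of 249, 849 and 4634 scaled tags. The 84 pretreated cells that listed it had 456, 4103 and 13569. The ranges overlapped, but 82 of the 84 pretreated cells lay above the naïve median and 37 above the highest naïve cell. Of the naïve cells 26.1% listed it (17.5 to 36.3), and of the pretreated cells 98.8% (93.6 to 99.97), 72.7 points more. In sum its tags rose from 8267 (40.7 CPM) to 119771 (418 CPM), 10.3-fold, a log2 ratio of 3.36 (3.33 to 3.39). Of all genes tested, 97.1% had a smaller ratio.

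All 8267 naïve tags and 99.7% of the pretreated tags of Ube2l6 lay within 100 bp of the start. The same window led in both groups, at distance 21 bp (start 84638932), with 41.2% of naïve tags in 9 cells and 57.3% of pretreated tags in 52 cells. Next in pretreated cells came the window at distance 5 bp, with 19.2% of the tags in 10 cells against 0.18% in 1 naïve cell. Pretreated cell 76 held 41.4% of the tags in that window, whose share was 12.2% without it. The higher signal thus lay in the same short start region. Windows so close overlap, and peaks lie at least 300 bp apart, so a cell's signal near the start is counted in 1 window. For all 5 genes, shares of windows near the start thus show where the peaks of different cells were placed, not a spread within cells.

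Herc6 (chromosome 6, plus strand, NM_025992), the ligase, was listed in more of the pretreated cells, without a higher median among listed cells. Whether more cells or more signal per cell lay behind the rise cannot be told from this. A cell is listed only when its peak reaches the minimum signal, so more signal per cell would also add listed cells. The lowest, median and highest signal was 236, 858 and 4022 scaled tags in the 22 naïve cells listed. It was 215, 787 and 3206 in the 75 pretreated cells listed. No pretreated cell lay above the highest naïve cell, and the median of listed cells was not higher. Of the naïve cells 23.9% listed Herc6 (15.6 to 33.9), and of the pretreated cells 88.2% (79.4 to 94.2), 64.3 points more. In sum Herc6 rose from 5224 tags (25.7 CPM) to 21340 tags (74.4 CPM), 2.90-fold, a log2 ratio of 1.53 (1.49 to 1.58). This ratio was larger than that of 83.8% of the genes tested, and 1.07 after median-of-ratios scaling. Of the 50-base stretches in the first 300 bases of its transcripts, 7.17% occur in Gm45193, an annotated gene that overlaps it on the same strand.

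Within 100 bp of the Herc6 start lay 78.8% of naïve and 90.1% of pretreated tags. The window at distance 11 bp (start 57530923) led in naïve cells with 45.1% of the tags in 5 cells and held 11.9% in 9 pretreated cells. The window at 16 bp led in pretreated cells with 42.5% in 33 cells, against 19.98% in 7 naïve cells, or 10.95% without naïve cell 62. With each cell given the same weight, the window at 16 bp led in both groups, with 26.2% and 43.01%. Intron windows held 737 naïve tags from 6 cells and 472 pretreated tags from 4 cells.

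Usp18 (chromosome 6, plus strand, NM_011909), the protease that removes ISG15, was the most abundant of the 5 in both groups and was listed in most naïve cells. In the 76 naïve cells listed the lowest, median and highest signal was 261, 3059.5 and 24922 scaled tags. In the 84 pretreated cells listed it was 516, 9486 and 24689.9. The ranges overlapped, and 83 of the 84 pretreated cells lay above the naïve median. The naïve maximum is that of a single cell, naïve cell 19, and the next highest naïve cell stood at 11072, against 18614 for the next highest pretreated cell. No peak was listed in 16 naïve cells and 1 pretreated cell. Of the naïve cells 82.6% listed it (73.3 to 89.7), and of the pretreated cells 98.8% (93.6 to 99.97), 16.2 points more, which falls short of 20. In sum Usp18 rose from 66350 tags (326 CPM) to 287507 tags (1003 CPM), 3.07-fold, a log2 ratio of 1.62 (1.61 to 1.63), larger than that of 85.1% of the genes tested. After median-of-ratios scaling it was 1.15.

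Nearly all Usp18 tags, 99.8% in naïve and 99.96% in pretreated cells, lay within 100 bp of the annotated start. A single window at distance 31 bp (start 121195881) held 75.5% of naïve tags in 54 cells and 93.97% of pretreated tags in 75 cells. The window 4 bp further on held 15.4% in 10 naïve cells and 2.82% in 3 pretreated cells. Of the 5 genes, Usp18 had the largest share of its tags in 1 window in pretreated cells.

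**Figure D2:**
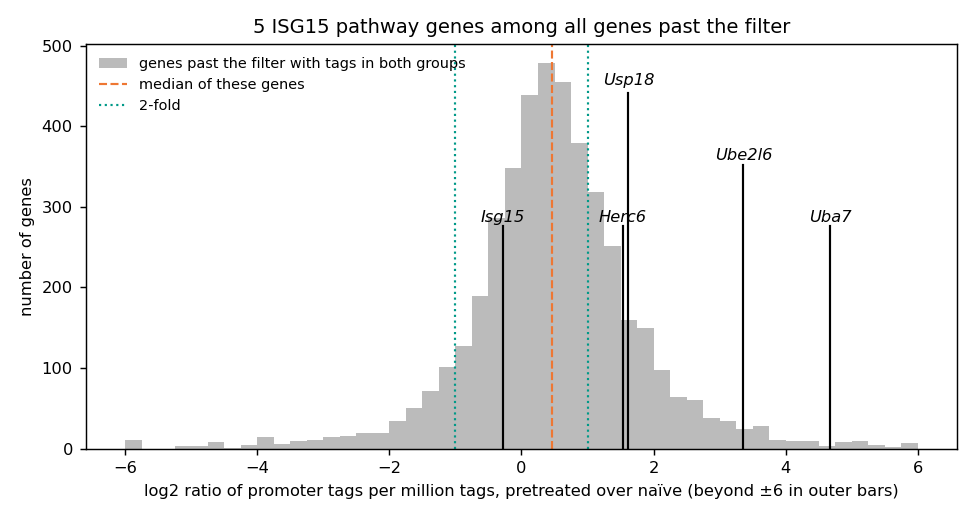
Log2 ratio of promoter CPM, pretreated over naïve: grey bars count the tested genes with tags in both groups, and black lines mark the 5 genes, of which Isg15 did not pass the filter. Uba7 and Ube2l6 lie in the right tail, Herc6 and Usp18 between 2-fold and Ube2l6, and Isg15 left of the median of all genes.

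By summed CPM the order in naïve cells was Usp18, Ube2l6, Herc6, Isg15, Uba7, and in pretreated cells Usp18, Ube2l6, Herc6, Uba7, Isg15. These levels count tags within 1000 bp of the annotated start and were not divided by length. Tags are reads, since no molecular identifiers are mentioned, so the order is one of promoter tags and not of RNA molecules. In naïve cells Ube2l6 and Herc6 did not differ beyond the spread of listed cells, with medians of 849 and 858 scaled tags. Isg15 and Uba7 were alike in listed naïve cells, with medians of 308 and 326, but were listed in 10 and 2 cells. In pretreated cells Uba7 and Isg15 were likewise alike in listed cells, with medians of 372 and 379.5, and differed in the number of cells, 33 against 11. The medians of these genes lie not far above the minimum of 200 scaled tags for a listed peak, which bounds them from below. Ube2l6 and Herc6, side by side in naïve cells, were apart in pretreated cells, at medians of 4103 and 787.

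Cells that listed 3 or more of the 5 genes were the rule in the pretreated group and a minority in the naïve group. None of the 5 was listed in 12 naïve cells, 1 in 39 cells, 2 in 30, 3 in 9 and 4 in 2, and no naïve cell listed all 5. Of the pretreated cells, 49 listed 3 of the genes, 26 listed 4 and 6 listed all 5, while 3 cells listed 2 and 1 cell listed none. That cell, pretreated cell 93, had 2257663 tags and 9216 peaks, more peaks than any other kept cell (the next had 8064). Without it the shares of Ube2l6 and Usp18 differed from naïve cells by 73.9 and 17.4 points, and the same genes were called. In naïve cells, 23 of the 24 that listed Ube2l6 and 9 of the 10 that listed Isg15 also listed Usp18, as did 76 of all 92. As a description over the cells of a group, with unlisted cells at 0, Spearman's rho of Ube2l6 with Usp18 was 0.23 in 92 naïve and 0.18 in 85 pretreated cells. For Herc6 with Usp18 it was 0.07 and -0.09, and for Ube2l6 with Herc6 0.14 and 0.11. Over the cells that listed both genes the values differed: Herc6 with Usp18 had 0.45 in 19 naïve and -0.18 in 75 pretreated cells, and Ube2l6 with Usp18 0.06 in 23 and 0.15 in 84. On log2 values Pearson's r of Ube2l6 with Usp18 in pretreated cells was 0.81 over all 85 cells and 0.33 without cell 93, which listed neither.

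**Figure D3:**
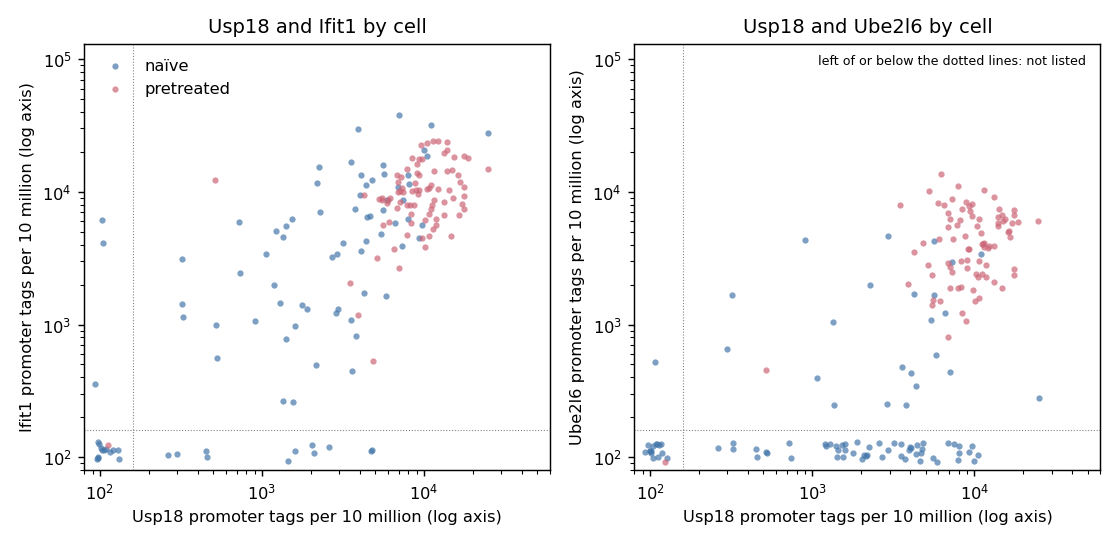
Usp18 signal against Ifit1 (left) and Ube2l6 (right) in each kept cell, in promoter tags per 10000000 on log axes; cells left of or below a dotted line had no listed peak of that gene and are spread for sight. Naïve cells form a rising band for Ifit1, and most lie on the floor for Ube2l6, where 24 of 92 had a listed peak.

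Over the naïve cells Usp18 was set beside the 1388 genes listed in at least 50% of them. Those most like Usp18 in signal were Ifit1, Ifit3b and Irgm1, with rho of 0.70, 0.57 and 0.57 over 92 cells. Ifit3b shares sequence with Ifit3, so its value is uncertain. The median rho over the 1388 genes was -0.04 and the 95th percentile 0.25. Ifit1 was listed in 65 of the 76 naïve cells that listed Usp18 and in 3 of the 16 that did not. In pretreated cells, where both were listed in 84 of 85 cells, rho of Usp18 with the same 3 genes was 0.36, 0.40 and 0.28. The genes most like Usp18 there were Mrpl32, Ppil2 and Prmt2 at 0.45, 0.42 and 0.42, among 2319 genes. For Ube2l6 in pretreated cells they were Calm2, Oasl2 and Dld at 0.49, 0.40 and 0.40, and for Herc6 Birc5, Cbx3 and Ahsa1 at 0.40, 0.37 and 0.35. Over the 2319 genes the median rho was 0.04 with Usp18, 0.03 with Ube2l6 and 0.03 with Herc6. The 95th percentiles were 0.235, 0.246 and 0.230, and the genes named are the highest of the 2319. The rho of the cell's total tags with the Usp18 signal was -0.07 in naïve and -0.01 in pretreated cells, and with Ube2l6 in pretreated cells -0.29.

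**Figure D4:**
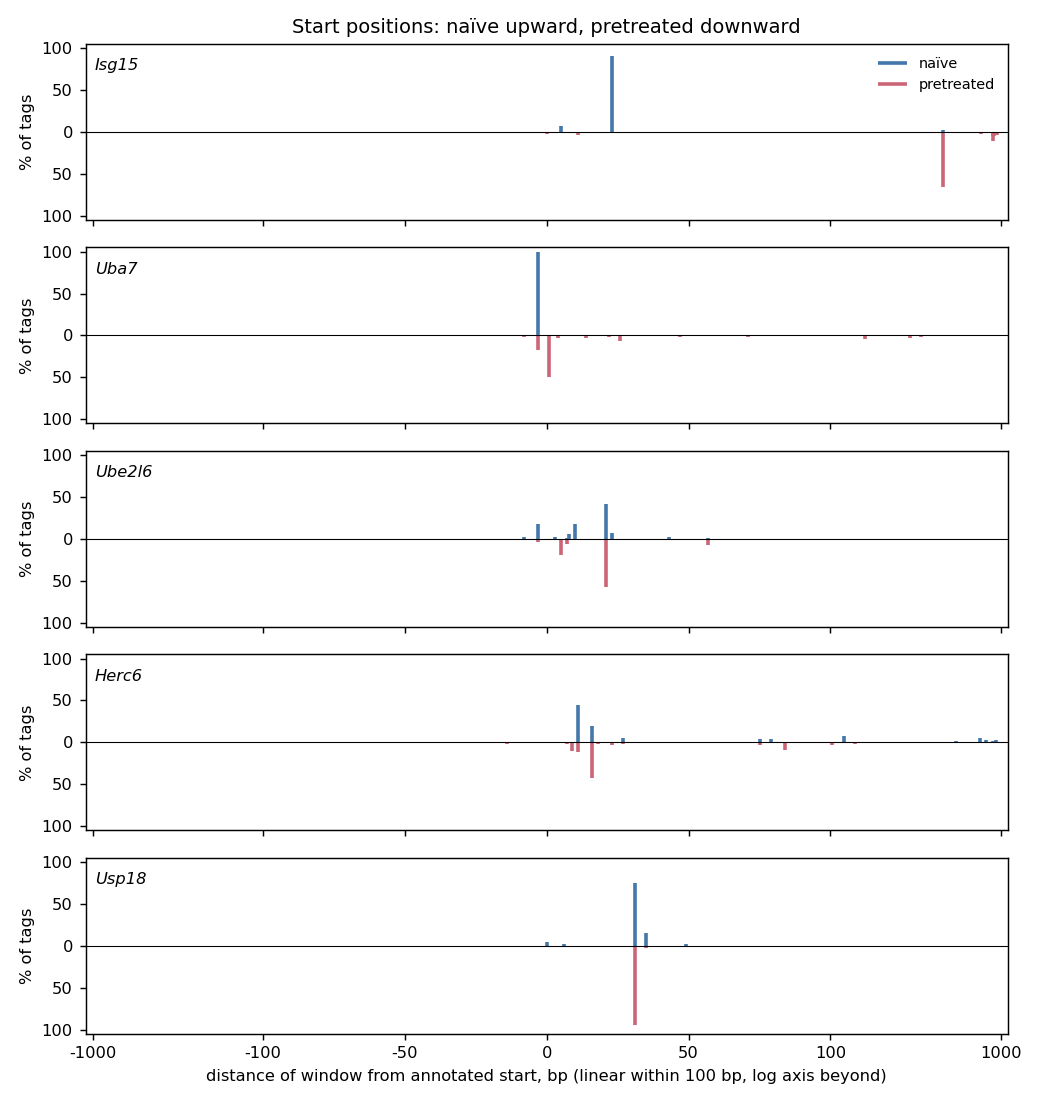
Share of each gene's promoter tags in each window (percent; naïve upward, pretreated downward) against the distance of the window from the annotated start in bp, linear within 100 bp and logarithmic beyond. Isg15 tags sit near the start in naïve and mostly at 458 bp in pretreated cells, and the other 4 genes stay near the start in both groups.

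The leading window differed between the groups in 3 of the 5 genes (Isg15, Uba7 and Herc6), where it did in 66.8% of 4398 genes. Uba7 and Herc6 moved by 4 and 5 bp, and with windows within 50 bp chained into sites only Isg15 differed. Leading windows more than 100 bp apart, as in Isg15, were found in 8.66% of the genes. Those genes all passed the filter, which Isg15 did not, and its leading pretreated window rests on 5 cells. The share is therefore not that of genes listed in as few cells.

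How sharply the tags of a peak gather was read from the deposited focus ratio, the fraction of tags close to the main position of the peak. The median over cells of the largest promoter peak was lower in pretreated cells in 4 of the 5 genes, where it was in 86.4% of 4398 genes, so the direction is that of most genes. Ube2l6 differed most, with a median of 0.947 in naïve cells (lowest 0.667, highest 0.993) and 0.655 in pretreated cells (0.268 to 0.999), a difference of -0.29. The median difference over all genes was -0.05, and 10% of genes were at -0.15 or lower. Herc6 went from 0.967 to 0.832 and Usp18 from 0.967 to 0.860, and both groups of cells overlapped in each. Uba7 had 0.986 and 0.976, and Isg15 0.979 and 0.983. Within a group, rho of the ratio with the number of tags was -0.27 over the 84 pretreated cells and 0.15 over the 24 naïve cells with Ube2l6. In peaks of at least 100 tags the medians of Ube2l6 were 0.954 in 16 naïve and 0.655 in 83 pretreated cells. Listed cells held a median of 185.5 Ube2l6 tags in the naïve and 1170.5 in the pretreated group. Neither value above matches the groups for this, and its part in the difference was not tested.

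**Figure D5:**
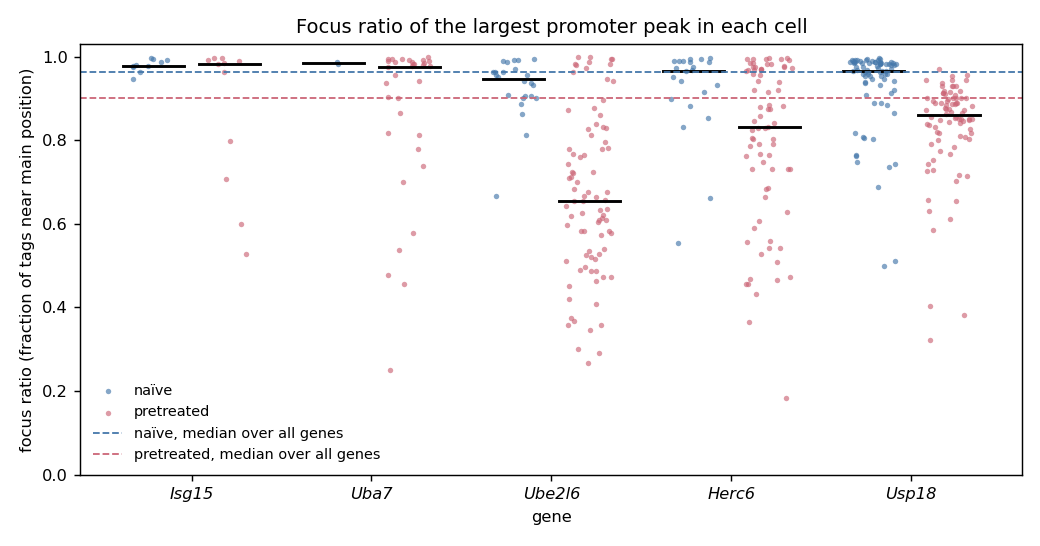
Deposited focus ratio (fraction from 0 to 1) of the largest promoter peak of each gene in each listed cell, with black lines at medians and dashed lines at the median over all genes of each group. Ube2l6 in pretreated cells is widely spread with its median at 0.655, below the line for pretreated cells at 0.902.

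Genes next to these enzymes were described from 4 lists. Over all genes tested, 29.7% were at least 2-fold higher and 9.18% lower, or 17.3% and 15.6% after median-of-ratios scaling. The counts of each list are to be read beside these shares. Of 8 genes of the interferon receptor and its signalling, 5 passed the filter, 2 were at least 2-fold higher and none lower. Ifnar2, the receptor subunit that USP18 binds, rose from 5.95 to 46.5 CPM (log2 ratio 2.97), but it passed the filter through the pretreated group alone and so had to differ. Stat2 stood at 107 and 111 CPM and Jak1 at 48.7 and 55.4 CPM. The median log2 ratio of the 5 was 0.29, against 0.47 over all genes tested, and -0.18 after median-of-ratios scaling.

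Of 21 activating, conjugating and ligating enzymes of ubiquitin and its relatives, 10 were tested, 5 were at least 2-fold higher and 2 lower, with a median log2 ratio of 0.79. Uba2 and Sae1, which together activate SUMO, had log2 ratios of 2.41 and 1.31, and Uba3 and Nae1, which together activate NEDD8, had 1.07 and 1.01. Uba2 and Uba3 passed the filter through the pretreated group alone. Ube2d3, a conjugating enzyme of ubiquitin, went from 88.3 to 252 CPM, a log2 ratio of 1.51. Ube2l3, the closest relative of Ube2l6, was lower, with 42.5 and 6.77 CPM and a log2 ratio of -2.65. It has near-identical copies for 52.04% of the 50-base stretches of its first 300 bases, so its value is uncertain, and it passed the filter through the naïve group alone. After median-of-ratios scaling 2 of the 10 were at least 2-fold higher and 3 lower, with Sae1, Uba3 and Nae1 no longer past 2-fold and Ube2n lower.

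Of 17 ubiquitin-like proteins and proteases reported to act on ISG15, 13 were tested, 3 were at least 2-fold higher and 1 lower, with a median of 0.21. The proteases Usp5 and Usp21 were higher, with log2 ratios of 1.47 and 2.57, and both passed the filter through the pretreated group alone. After median-of-ratios scaling 2 of the 13 were at least 2-fold higher and 2 lower. Ubb, a polyubiquitin gene, was lower, with 628 and 27.5 CPM (-4.51), and 15.3% of the stretches of its first 300 bases have copies elsewhere. Nedd8, the most abundant of the list by the sum of both groups, stood at 775 and 898 CPM. Of 10 proteins reported to carry ISG15, 7 were tested, 2 were at least 2-fold higher and 1 lower, with a median of 0.38. Bst2 went from 26.7 to 1141 CPM (log2 ratio 5.42) and Ifit3, which shares 42.2% of these stretches with Ifit3b, from 158 to 448 CPM (1.51). Ifit1 had 522 and 1014 CPM, a log2 ratio of 0.96. After median-of-ratios scaling the medians of these last lists were -0.25 and -0.09.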

How the data were processed

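Single-cell 5′-end libraries of 192 cells were used, 1 deposited peak file each. Per the file headers, the authors called peaks in each cell and strand with HOMER in its start-site mode (width 150 bp, at least 300 bp apart, at least 200 tags per 10000000, at least 2-fold over the surrounding 10000 bp with Poisson p 1e-04), and the deposited signal gives tags per 10000000 in that cell. The deposited focus ratio is a fraction per peak. Bowtie2, HOMER and build mm9 are named per the submitters' processing notes; versions and duplicate handling are not given in the sources used here, and no molecular identifiers are mentioned, so tags are reads. Distances to starts come from the deposited window table, with HOMER annotation per the file headers.

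The design assumed counts. Tags were recovered as signal times header total divided by 10000000, and all 1082504 peaks came out whole within 0.1 tag or the rounding of the value. Peaks were given to windows starting within 2 bp (1080791 matched), and gene strands were taken from GENCODE vM21. Cells under 230562.75 tags (10% of the median) were left out, 4 naïve and 11 pretreated, and 0 of the 192 files repeated another. Tags were summed per group, 0.5 tag was added to each sum for log2 ratios, Poisson and Clopper-Pearson intervals are exact at 95%, and no test was run with 1 sample a group. The steps were tested on simulated data (Python 3.11.15, numpy 2.4.6, pandas 2.3.3, scipy 1.17.1). Named are the 5 genes and, from 4 lists, genes of highest CPM (up to 4 a list) and any past 2-fold (some are not reported here), and the 3 genes most alike by Spearman's rho among genes listed in at least 50% of cells. The genes and lists were chosen with earlier results of these data known. In 2 deposited matrices, 384 columns without sample names were not used, nor was the UCSC table. Alternatives varied the cells kept, distance, strand, matching, peak minimum, annotation, scaling and weights.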

Additional observations from a re-analysis of the deposited data

Results flagged for a closer look

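Peaks outside the promoter windows, which enter none of the comparisons above, had a higher CPM in pretreated cells for 4 of the 5 genes. Their counting intervals did not overlap between the groups. These intervals do not cover the spread between cells, and no difference was tested. Of the 4421 genes past the filter, which leave out Isg15, 32.1% were higher with intervals apart and 54.5% lower for peaks on the gene's strand. For antisense peaks 38.2% were higher and 36.8% lower. The peaks below lie on the gene's strand more than 1000 bp from the annotated start unless said otherwise.

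Isg15 had 1.71 CPM in pretreated cells (489 tags from 4 cells, all in exons) and 0 tags in naïve cells. Uba7 had 22.1 CPM in pretreated cells (6347 tags from 39 cells) against 1.51 CPM in naïve cells (306 tags from 4 cells), more than its promoter windows held in either group. Antisense peaks of Uba7 held 5.72 CPM in pretreated cells (1640 tags from 9 cells) against 0.762 CPM in naïve cells (155 tags from 1 cell). Ube2l6 had 30.3 CPM in pretreated cells (8683 tags from 42 cells) against 8.06 CPM in naïve cells (1639 tags from 9 cells). Usp18 had 84.1 CPM in pretreated cells (24125 tags from 73 cells) against 54.9 CPM in naïve cells (11153 tags from 27 cells). As a share of all tags on the gene's strand, these peaks were smaller in pretreated cells for Ube2l6 (16.5% to 6.76%) and Usp18 (14.4% to 7.74%), and larger for Isg15 (0% to 28.1%). Herc6 went the other way in level, with 10.8 CPM in naïve cells (2205 tags from 12 cells) and 6.21 CPM in pretreated ones (1782 tags from 14 cells), a share of 29.7% to 7.71%.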

How the results depend on the processing

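With 1 sample a group these values have no replicate check. The count of genes at least 2-fold higher was 4 under every alternative run, and that of genes listed in at least 20 points more cells was 3. With peaks of at least 400 scaled tags the latter were different genes: Uba7 differed by 17.6 points and Usp18 by 22.7 points. The leading window differed in 1 gene instead of 3 with windows chained within 50 bp. The median focus ratio was lower in 3 to 5 genes. Herc6 ranged from 1.07 to 1.73, Usp18 from 1.15 to 1.79 and Ube2l6 from 2.90 to 3.61 in log2 ratio over 16 alternatives. Uba7 fell to 3.60 with peaks on both strands, and with peaks of at least 400 scaled tags it was listed at 0 in naïve cells. Isg15 changed sign in 3 alternatives, with 0.53 for exact matches of peak and window start and 0.19 for windows up to 2000 bp or all windows.

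Thinning each cell to 1122993 tags left 76 and 83 cells, with 16 and 2 left out. The shares listed were then 2.63% and 38.6% for Uba7, 27.6% and 98.8% for Ube2l6, 21.1% and 86.7% for Herc6, and 80.3% and 98.8% for Usp18. Peaks were not called again, so a peak near the minimum may be listed or not by depth. The alternatives without pretreated cell 93 and with windows up to 100 bp were chosen after seeing the data. No paired analysis was possible because the results are values without a test, and the numbers of the cells serve as names alone.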
